A study of Mus musculus with 68 samples.

Results

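The genes described here are the lectin-like receptors and ligands of the natural killer (NK) gene complex, taken as every row of the RNA-seq count table whose symbol starts with Klra, Klrb, Klrc, Klrd, Klre, Klrg, Klri, Klrk or Clec2. This rule found 44 of the 23893 rows. They were 21 Klra, 6 Klrb, 7 Clec2 and 2 Klrg rows, and 8 rows of the Klrc, Klrd, Klre, Klri and Klrk genes. By symbol, 37 matched a RefSeq gene (assembly GRCm38.p6), and all 37 lie on mouse chromosome 6. Another 2 matched only an older symbol, Klra33 as Klra4 and Klra22 as Klra1, and 5 (Klra12, Klra15, Klra18, Klra19 and Klra21) had no match. Klra13-ps, Klra14-ps and Klrb1-ps1 are pseudogenes by RefSeq.

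NK cells are lymphocytes that kill infected or transformed cells, and their activity is set by the balance of activating and inhibitory receptors. In the mouse many of these receptors are C-type lectin-like proteins encoded side by side in the NK gene complex. Some read class I molecules of the major histocompatibility complex (MHC) on other cells, some read stress-induced ligands, and the Klrb receptors read Clec2 proteins encoded in the same complex. The complex varies between mouse strains in gene number and sequence.

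Polyadenylated RNA of whole lungs from wild-type male mice was sequenced. The groups were CAST/EiJ mice exposed to 1,3-butadiene (BD, an industrial gas used in rubber making) with 5 libraries, CAST/EiJ mice in clean air with 7, C57BL/6J mice exposed to BD with 6, and C57BL/6J mice in clean air with 5. Exposure lasted 6 h per day on weekdays for 2 weeks. The labels used here give no age, BD concentration or animal number, so p-values measure the spread between these libraries. A 24th library, labelled CAST/EiJ BD replicate 5 (number 8 in its title), is shown apart and entered no mean or test unless stated. Reads of both strains were aligned to the mm9 build, which is the C57BL/6J genome.

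The 24 libraries held 10597990–50001571 counts. CPM are counts per 1000000 counts of a library, with the library size scaled by its TMM normalisation factor. Before that scaling, 1 count per 1000000 stood for about 10.6 counts in the smallest library. All 5 lung epithelial genes checked (Sftpc, Sftpb, Scgb1a1, Cldn18 and Ager) had counts in every library. Of the 44 rows, 39 passed the filter on low counts among 17377 tested genes. Clec2l, Klra5, Klra6, Klra19 and Klrb1 did not pass, and their highest value in any library of the 4 groups was 0.685 CPM, for Klra5. Klra6 and Klra19 held the same count in all 24 libraries and are 1 measurement. The tests were edgeR quasi-likelihood F tests over all 17377 genes with Benjamini-Hochberg adjustment, and an adjusted p under 0.05 was called.

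Promoter sequence of 6 members is shown because the strain results below turn on these genes, with Klrk1, Klra8 and Klra4 among the rows lower in CAST/EiJ and Klrb1f, Clec2e and Clec2h among those higher. Each line holds 250 bases before and 50 after the start of the gene, 5′ to 3′, from RefSeq (build GRCm38.p6, C57BL/6J). Capitals mark matches on either strand to a T-box half-site (AGGTGT), a RUNX core (TGTGGT) or an ETS core with its flank (AGGAAG), motifs of factor families used by lymphocytes.

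Klrk1 promoter, chr6:129623815-129624114, minus strand: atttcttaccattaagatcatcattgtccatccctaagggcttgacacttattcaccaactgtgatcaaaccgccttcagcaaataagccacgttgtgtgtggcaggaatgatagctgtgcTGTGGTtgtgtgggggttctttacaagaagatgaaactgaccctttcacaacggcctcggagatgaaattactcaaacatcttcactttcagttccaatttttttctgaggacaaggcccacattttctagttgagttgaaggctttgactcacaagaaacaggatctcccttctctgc
Klra8 promoter, chr6:130129849-130130148, minus strand: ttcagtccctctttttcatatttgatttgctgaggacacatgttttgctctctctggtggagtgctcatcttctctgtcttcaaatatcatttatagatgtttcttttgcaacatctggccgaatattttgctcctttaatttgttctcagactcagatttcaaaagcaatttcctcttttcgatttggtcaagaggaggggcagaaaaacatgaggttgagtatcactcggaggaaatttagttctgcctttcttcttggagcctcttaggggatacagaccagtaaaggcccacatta
Klra4 promoter, chr6:130067222-130067521, minus strand: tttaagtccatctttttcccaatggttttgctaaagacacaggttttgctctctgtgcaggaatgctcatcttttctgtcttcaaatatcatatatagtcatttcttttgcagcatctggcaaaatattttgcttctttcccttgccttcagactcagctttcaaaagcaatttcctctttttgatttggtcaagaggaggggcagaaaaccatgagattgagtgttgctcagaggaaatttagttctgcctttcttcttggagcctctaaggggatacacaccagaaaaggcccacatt
Klrb1f promoter, chr6:129045651-129045950, plus strand: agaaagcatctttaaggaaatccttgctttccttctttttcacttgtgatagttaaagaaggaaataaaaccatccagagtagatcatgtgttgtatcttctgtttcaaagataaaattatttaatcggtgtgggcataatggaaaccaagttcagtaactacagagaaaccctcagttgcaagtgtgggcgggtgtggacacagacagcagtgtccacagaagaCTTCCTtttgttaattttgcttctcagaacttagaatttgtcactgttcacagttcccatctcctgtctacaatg
Clec2e promoter, chr6:129100854-129101153, minus strand: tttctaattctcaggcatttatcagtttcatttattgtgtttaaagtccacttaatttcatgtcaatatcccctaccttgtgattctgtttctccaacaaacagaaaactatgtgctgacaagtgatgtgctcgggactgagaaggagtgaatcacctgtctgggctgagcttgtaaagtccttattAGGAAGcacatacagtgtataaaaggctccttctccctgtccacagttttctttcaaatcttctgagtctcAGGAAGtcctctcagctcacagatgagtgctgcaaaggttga
Clec2h promoter, chr6:128662135-128662434, plus strand: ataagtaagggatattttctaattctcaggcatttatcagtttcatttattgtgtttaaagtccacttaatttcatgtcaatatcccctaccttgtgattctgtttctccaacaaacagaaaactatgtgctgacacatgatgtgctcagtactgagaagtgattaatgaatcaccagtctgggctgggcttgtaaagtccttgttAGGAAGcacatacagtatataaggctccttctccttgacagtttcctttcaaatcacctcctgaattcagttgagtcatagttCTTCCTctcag

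Of the 44 members, 29 had a promoter in the table. The T-box half-site was in 1 of the 29 and in 13.9% of all 27025 promoters, the RUNX core in 8 of the 29 and in 16.9% of all, and the ETS core with flank in 10 of the 29 and in 35.1% of all. Among the 6 shown, Klrk1 held 1 RUNX match, Klrb1f 1 ETS match, and Clec2e and Clec2h 2 ETS matches each. Klra8 and Klra4, whose promoters were 86.0% identical, held none of these letters, and Clec2e and Clec2h were 79.0% identical. A match is only a run of letters in the C57BL/6J sequence, and the CAST/EiJ sequence was not analysed here.

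The first question the design poses is how the strains differ without exposure. In clean air, 38 of the 39 tested members differed between CAST/EiJ and C57BL/6J, 8 higher and 30 lower in CAST/EiJ, where 60.4% of all tested genes were called (29.4% higher, 31% lower). The median log2 fold change of the members was -1.98, against -0.000496 over all genes. Only Klrb1b did not pass (log2 fold change 0.18, adjusted p = 0.424). A row could pass the filter through the libraries of 1 strain alone, so the count over the 39 is partly set by the filter. With libraries of 1 strain only, 18 members would have passed in C57BL/6J alone and 5 in CAST/EiJ alone (Clec2e, Clec2f, Clec2h, Klra17 and Klrb1-ps1). Of the 16 members that pass in both strains, 3 were higher and 12 lower in clean air, where 60.6% of all such genes were called.

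**Figure D1:**
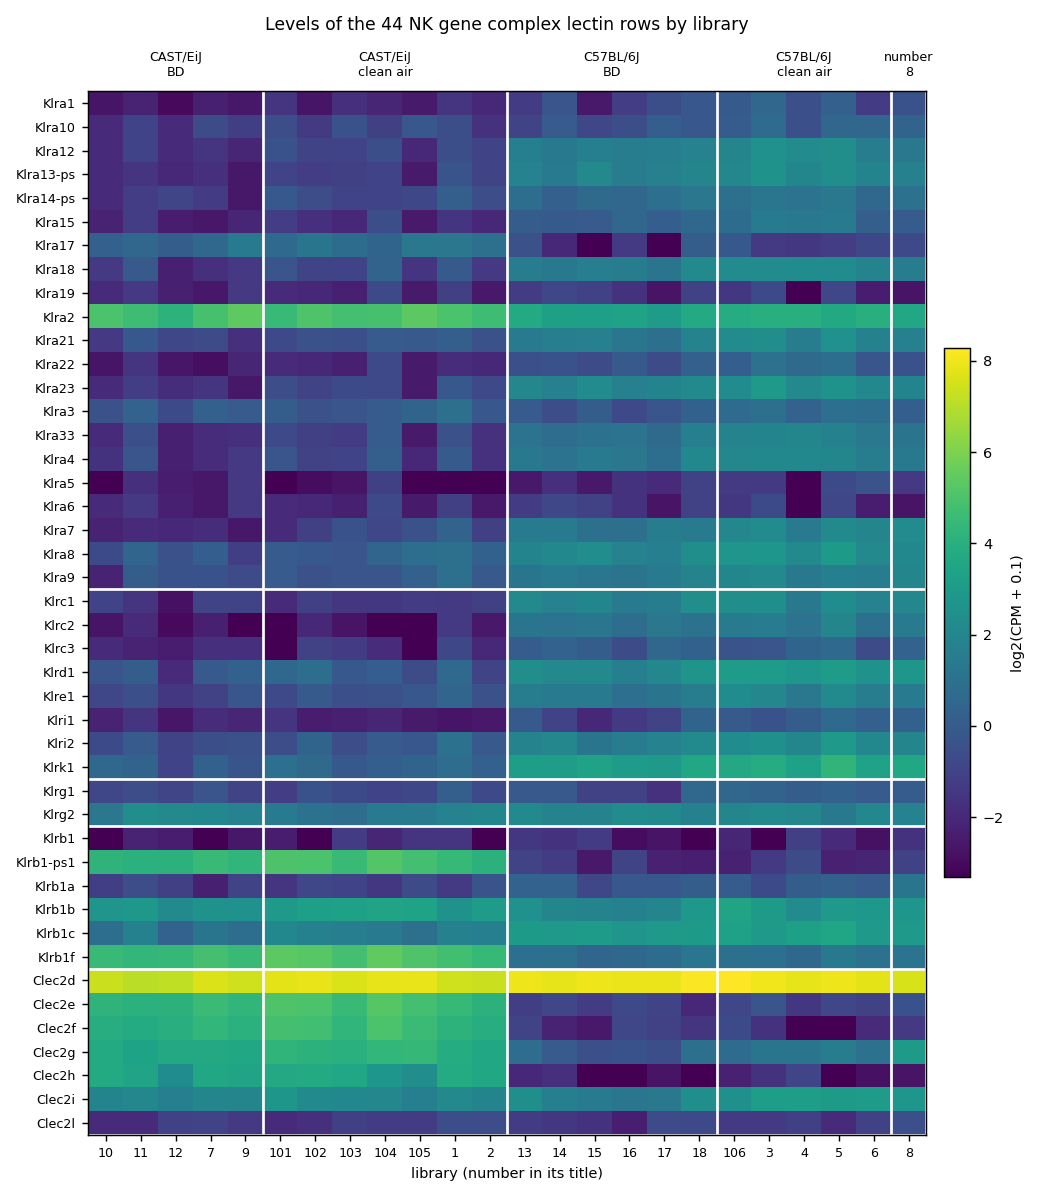
Level of each of the 44 rows in each of the 24 libraries, as log2(CPM + 0.1), with libraries in columns by group and number 8 in the last column. Most Klra and Klrc to Klrk rows are darker (lower) in CAST/EiJ, whereas Klra2, Klra17, Klrb1-ps1, Klrb1f, Clec2e, Clec2f, Clec2g and Clec2h are brighter, and number 8 looks like C57BL/6J in most rows.

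Among the activating and heterodimer-forming receptors, all 8 tested Klrc, Klrd, Klre, Klri and Klrk members were lower in CAST/EiJ in clean air, with log2 fold changes from -4.83 to -1.98, and again all 8 under BD. Klrk1 encodes NKG2D, the activating receptor for stress-induced ligands. It was measured at 0.823, 1.25 and 1.80 CPM (lowest, median and highest of 7 libraries) in clean-air CAST/EiJ lungs, against 9.89, 10.3, 12.7, 14.3 and 18.8 CPM in the 5 clean-air C57BL/6J libraries. The strains did not overlap, and Klrk1 was 10.5-fold lower in CAST/EiJ (log2 fold change -3.39 ± 0.24 (SE), edgeR quasi-likelihood, Benjamini-Hochberg adjusted p = 3.59e-11).

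Klrd1 encodes CD94, which pairs with the Klrc products to read a nonclassical class I molecule encoded by H2-T23. Its lowest, median and highest values were 0.425, 0.997 and 1.75 CPM in clean-air CAST/EiJ lungs, against 5.87, 6.80, 8.06, 8.45 and 8.48 CPM in clean-air C57BL/6J lungs. The groups were apart, by a log2 fold change of -2.83 ± 0.32 (SE; edgeR adjusted p = 7.16e-08). Klrc1, which encodes the inhibitory partner NKG2A, stood at 0.164, 0.293 and 0.357 CPM in clean-air CAST/EiJ lungs, against 2.47, 3.43, 4.85, 5.24 and 5.36 CPM in clean-air C57BL/6J lungs, a log2 fold change of -3.89 (adjusted p = 7.88e-10). The activating partner gene Klrc2 had 21 counts in all over the 12 CAST/EiJ libraries of both exposures, and 546 over the 11 C57BL/6J libraries. In clean air it averaged 0.0806 ± 0.108 CPM (SD, n = 7) in CAST/EiJ lungs and 2.61 ± 0.768 CPM (SD, n = 5) in C57BL/6J lungs, the lowest log2 fold change of the family in edgeR (-4.83).

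Klrc3, a further NKG2 gene, ranged over 0–0.469 CPM in clean-air CAST/EiJ lungs and 0.557–1.45 CPM in clean-air C57BL/6J lungs. The product of Klre1 forms heterodimers with those of Klri1 and Klri2. Klre1 ranged over 0.492–1.29 CPM in clean-air CAST/EiJ lungs and 2.38–4.92 CPM in clean-air C57BL/6J lungs, and Klri2 over 0.566–1.94 CPM and 3.89–7.70 CPM in the same groups. Klri1 ranged over 0.0586–0.246 CPM in clean-air CAST/EiJ lungs and 0.661–1.45 CPM in clean-air C57BL/6J lungs. Each of these 4 rows had ranges that did not overlap in clean air, with log2 fold changes of -1.98 for Klrc3, -2.32 for Klre1, -3.20 for Klri1 and -2.45 for Klri2.

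The Klra genes encode the Ly49 receptors, which mostly bind classical class I molecules. Of 18 tested Klra rows, 16 were lower and 2 higher in CAST/EiJ in clean air, and 15 were lower and the same 2 higher under BD. Klra8, which encodes the activating receptor Ly49H that recognises mouse cytomegalovirus, was measured at 0.721, 1.13 and 1.82 CPM (lowest, median, highest) in clean-air CAST/EiJ lungs, against 4.33, 4.59, 6.58, 6.83 and 7.81 CPM in clean-air C57BL/6J lungs. No CAST/EiJ library reached the lowest C57BL/6J library, and the log2 fold change was -2.38 ± 0.27 (SE; edgeR adjusted p = 7.11e-08). Klra4 encodes another activating member, Ly49D. It stood at 0.156, 0.412 and 1.04 CPM in clean-air CAST/EiJ lungs, against 2.96, 3.96, 4.03, 4.11 and 4.15 CPM in clean-air C57BL/6J lungs, a log2 fold change of -2.82 (adjusted p = 9.15e-07).

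Klra7, which encodes the inhibitory receptor Ly49G, had values of 0.164, 0.453 and 1.17 CPM in clean-air CAST/EiJ lungs, against 2.56, 3.73, 3.98, 4.46 and 4.78 CPM in clean-air C57BL/6J lungs, a log2 fold change of -2.87 (adjusted p = 7.46e-09). Klra9, for Ly49I, ranged over 0.624–1.76 CPM in clean-air CAST/EiJ lungs and 2.47–4.26 CPM in clean-air C57BL/6J lungs. Klra1, for Ly49A, ranged over 0.0594–0.246 CPM in clean-air CAST/EiJ lungs and 0.300–1.32 CPM in clean-air C57BL/6J lungs. All 3 rows had ranges that did not overlap in clean air. Klra10 did overlap, at 0.212–0.781 CPM in clean-air CAST/EiJ lungs and 0.618–1.54 CPM in clean-air C57BL/6J lungs, with a log2 fold change of -1.28 (adjusted p = 0.00184).

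Klra3, for Ly49C, was the least changed of the lower Klra rows, with 0.624–1.82 CPM in clean-air CAST/EiJ lungs and 1.15–1.84 CPM in clean-air C57BL/6J lungs (log2 fold change -0.72, edgeR adjusted p = 0.0242). That call rested on single libraries. Its adjusted p was 0.0556 without CAST/EiJ clean air replicate 2, 0.0522 without C57BL/6J clean air replicate 2 and 0.0532 without C57BL/6J clean air replicate 4. The other 9 lower Klra rows (Klra12, Klra13-ps, Klra14-ps, Klra15, Klra18, Klra21, Klra22, Klra23 and Klra33) include 2 pseudogenes and 6 symbols not matched to a RefSeq gene under that symbol. Their log2 fold changes in clean air lay from -3.57 for Klra13-ps to -1.74 for Klra14-ps, and none of the 9 overlapped between strains. Klra23 had 0.0781–0.821 CPM in clean-air CAST/EiJ lungs and 4.11–7.35 CPM in clean-air C57BL/6J lungs, and Klra13-ps 0.0781–0.704 CPM and 3.64–6.10 CPM in the same groups.

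Klra12 ranged over 0.156–0.656 CPM in clean-air CAST/EiJ lungs and 2.96–5.73 CPM in those of C57BL/6J, and Klra14-ps over 0.408–1.06 CPM and 1.41–2.40 CPM in the same groups. Klra15 ranged over 0.0781–0.589 CPM in clean-air CAST/EiJ lungs and 1.03–2.72 CPM in clean-air C57BL/6J lungs, and Klra22 over 0.0781–0.499 CPM and 0.771–1.91 CPM. The highest CAST/EiJ value of each thus stayed below the lowest C57BL/6J value. Klra18 ranged over 0.234–1.18 CPM in clean-air CAST/EiJ lungs and 3.51–4.96 CPM in clean-air C57BL/6J lungs, Klra21 over 0.492–1.06 CPM and 2.91–5.69 CPM, and Klra33 over 0.0781–0.952 CPM and 2.40–3.89 CPM.

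Both Klra rows that were higher in CAST/EiJ encode Ly49 proteins known from myeloid cells. Klra2, for Ly49B, was measured at 22.9, 29.6 and 41.1 CPM in clean-air CAST/EiJ lungs, against 13.2, 14.2, 15.7, 16.02 and 16.1 CPM in clean-air C57BL/6J lungs. The strains were apart, by a log2 fold change of 0.97 ± 0.17 (SE; edgeR adjusted p = 3.90e-05). Klra17, for Ly49Q, which plasmacytoid dendritic cells carry, ranged over 1.22–2.42 CPM in clean-air CAST/EiJ lungs and 0.265–0.806 CPM in clean-air C57BL/6J lungs, a log2 fold change of 1.96 (adjusted p = 0.00242). The 12 macrophage and dendritic cell markers summed to 1905–4082 CPM in clean-air CAST/EiJ lungs and to 816.2–1032 CPM in clean-air C57BL/6J lungs, with 4 of 12 higher and 6 lower and a median log2 fold change of -0.476. The sum was carried by the macrophage gene Chil3, at 1426–3350 CPM in clean-air CAST/EiJ lungs and 399.5–538.0 CPM in clean-air C57BL/6J lungs, and the other 11 summed to 473.3–732.1 CPM and 416.7–494.3 CPM in these groups. Their part in the Klra2 and Klra17 values was not tested.

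**Figure D2:**
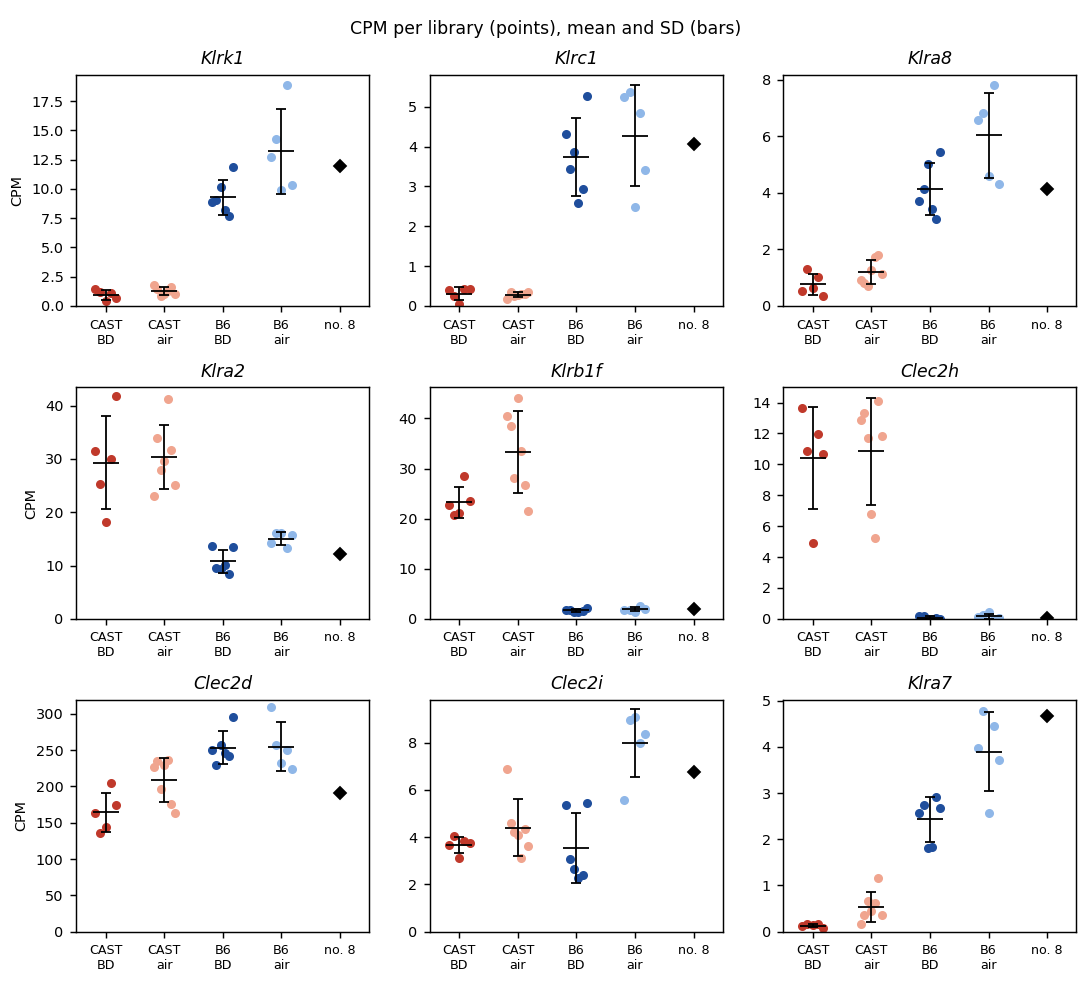
CPM per library for 9 members, with the mean and SD of each group as bars, CAST standing for CAST/EiJ, B6 for C57BL/6J and no. 8 for the library shown apart. Klrk1, Klrc1, Klra8 and Klra7 are lower in CAST/EiJ, Klra2, Klrb1f and Clec2h are higher, and number 8 lies at the C57BL/6J level in these 7.

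The Klrb genes encode the NKR-P1 receptors. Klrb1c, whose product is the NK1.1 antigen of C57BL/6J, was measured at 1.87, 3.11 and 4.10 CPM in clean-air CAST/EiJ lungs, against 7.42, 7.50, 9.62, 9.91 and 11.3 CPM in clean-air C57BL/6J lungs. The strains were apart, by a log2 fold change of -1.62 ± 0.19 (SE; edgeR adjusted p = 1.63e-07). Klrb1a had 0.246–0.708 CPM in clean-air CAST/EiJ lungs and 0.514–1.06 CPM in clean-air C57BL/6J lungs, which overlapped (log2 fold change -1.12, adjusted p = 0.00381). Klrb1b, the inhibitory receptor for Clec2d, overlapped widely, at 6.10–10.8 CPM in clean-air CAST/EiJ lungs and 4.68–10.8 CPM in clean-air C57BL/6J lungs.

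Klrb1f and Klrb1-ps1 went the other way. Klrb1f was measured at 21.4, 33.5 and 44.1 CPM in clean-air CAST/EiJ lungs, against 1.41, 1.76, 1.83, 1.97 and 2.51 CPM in clean-air C57BL/6J lungs, which is 16.9-fold higher (log2 fold change 4.08 ± 0.19 (SE), edgeR adjusted p = 1.82e-14). The pseudogene Klrb1-ps1 had 17.5–36.5 CPM in clean-air CAST/EiJ lungs and 0.107–0.530 CPM in clean-air C57BL/6J lungs, the highest log2 fold change of the family (7.08).

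Of the 6 tested Clec2 rows, which encode ligands of the Klrb receptors and close relatives of these, 4 were higher and 2 lower in CAST/EiJ in clean air. Clec2h was measured at 5.23, 11.8 and 14.1 CPM in clean-air CAST/EiJ lungs, against 0, 0.0428, 0.107, 0.220 and 0.442 CPM in clean-air C57BL/6J lungs, a log2 fold change of 6.28 ± 0.54 (SE; edgeR adjusted p = 2.23e-09). Over both exposures it had 2699 counts in CAST/EiJ and 23 in C57BL/6J. Clec2e ranged over 17.6–36.7 CPM in clean-air CAST/EiJ lungs and 0.265–0.735 CPM in clean-air C57BL/6J lungs, Clec2f over 15.1–31.5 CPM and 0–0.510 CPM, and Clec2g over 12.3–21.2 CPM and 1.56–2.79 CPM in the same groups. The log2 fold changes were 5.87 for Clec2e, 6.59 for Clec2f and 2.98 for Clec2g, with no overlap.

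Clec2d is the ligand of Klrb1b. Its lowest, median and highest values were 164, 226 and 236 CPM in clean-air CAST/EiJ lungs, against 224, 233, 250, 258 and 310 CPM in clean-air C57BL/6J lungs. The ranges overlapped, with a log2 fold change of -0.33 (adjusted p = 0.0103). Clec2i, a ligand of Klrb1f, had 3.12, 4.22 and 6.88 CPM in clean-air CAST/EiJ lungs, against 5.56, 7.97, 8.35, 8.96 and 9.10 CPM in clean-air C57BL/6J lungs, with 1 CAST/EiJ library inside the C57BL/6J range (log2 fold change -0.90, adjusted p = 0.000946).

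Both Klrg rows passed in clean air. Klrg1, an inhibitory receptor for cadherins on mature NK and T cells, had 0.328–1.06 CPM in clean-air CAST/EiJ lungs and 0.899–1.32 CPM in clean-air C57BL/6J lungs (log2 fold change -0.99, edgeR adjusted p = 0.0135). Klrg2 had 1.65–3.89 CPM in clean-air CAST/EiJ lungs and 2.51–4.56 CPM in clean-air C57BL/6J lungs (log2 fold change -0.56, adjusted p = 0.0217; 0.0596 without C57BL/6J clean air replicate 2). Neither passed under BD, with adjusted p = 0.391 for Klrg1 and 0.851 for Klrg2.

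Titles numbered over 100 were held by 5 of the 7 clean-air CAST/EiJ libraries and 1 of the 5 clean-air C57BL/6J libraries. Without them 34 members were called in clean air, 8 higher and 26 lower, where 43.8% of all genes were called. The 4 that were lost were Klra3 (log2 fold change -0.35, adjusted p = 0.499), Klrb1a (-0.86, 0.197), Klrg1 (-0.44, 0.526) and Klrg2 (-0.09, 0.802).

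**Figure D3:**
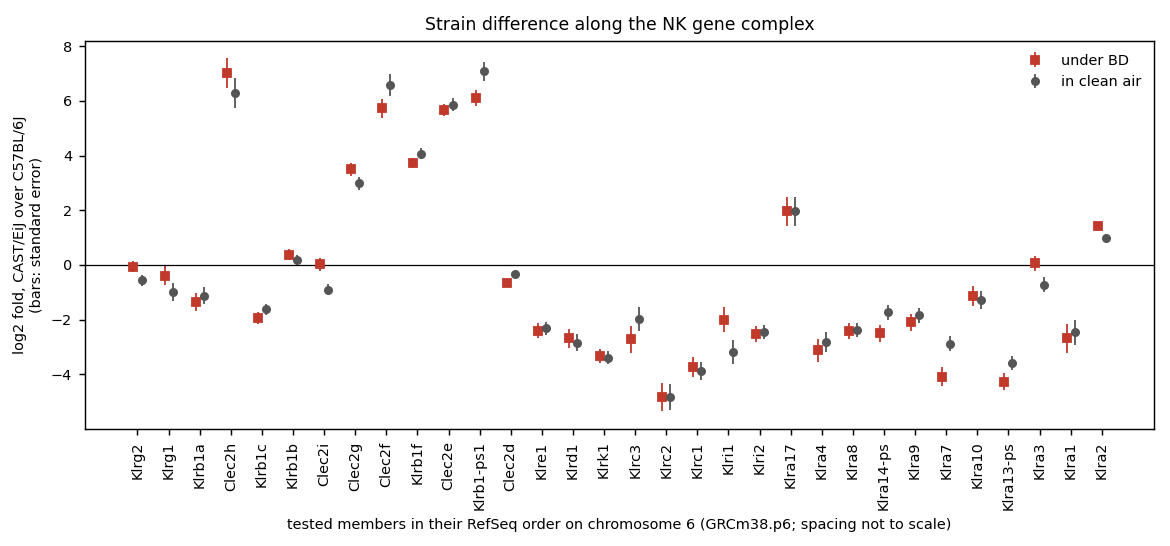
Log2 fold change of CAST/EiJ over C57BL/6J under BD (squares) and in clean air (circles), with standard errors, for the tested members placed in RefSeq order along chromosome 6. Members higher in CAST/EiJ are Clec2h, the adjoining Clec2g, Clec2f, Klrb1f, Clec2e and Klrb1-ps1, and the Klra rows Klra17 and Klra2, and the rows from Klre1 to Klri2 all lie below 0.

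The same contrast under BD uses libraries that the clean-air contrast does not. Under BD 34 of 39 members differed, 8 higher and 26 lower in CAST/EiJ, where 42.7% of all tested genes were called (20.4% higher, 22.3% lower). The members' median log2 fold change was -2.41, against -0.00399 over all genes. Of the 16 members that pass the filter in both strains alone, 3 were higher and 9 lower, where 42% of such genes were called. Clec2i, Klra3, Klrb1b, Klrg1 and Klrg2 did not pass. Klrk1 was measured at 0.397, 0.695, 1.11, 1.18 and 1.43 CPM in CAST/EiJ BD lungs, against 7.71, 8.94 and 11.8 CPM (lowest, median and highest of 6) in C57BL/6J BD lungs, again without overlap (log2 fold change -3.33, adjusted p = 4.04e-10). Clec2h had 4.93, 10.7, 10.9, 11.97 and 13.7 CPM in CAST/EiJ BD lungs, against 0, 0.0266 and 0.191 CPM in C57BL/6J BD lungs (log2 fold change 7.02, adjusted p = 3.67e-10).

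Klra8 was measured at 0.347, 0.514, 0.627, 1.01 and 1.30 CPM in CAST/EiJ BD lungs, against 3.08, 3.92 and 5.46 CPM in C57BL/6J BD lungs, again apart (log2 fold change -2.43, edgeR adjusted p = 3.60e-07). Klra2 had 18.1, 25.3, 30.1, 31.4 and 41.7 CPM in CAST/EiJ BD lungs, against 8.46, 9.85 and 13.7 CPM in C57BL/6J BD lungs (log2 fold change 1.41, adjusted p = 5.21e-07). Every CAST/EiJ library lay above every C57BL/6J library for this myeloid Ly49 gene under BD too. Klra17 overlapped under BD, through its range of 0.961–2.57 CPM in CAST/EiJ BD lungs and 0–0.974 CPM in C57BL/6J BD lungs. Clec2d, at 135–204 CPM in CAST/EiJ BD lungs and 230–296 CPM in C57BL/6J BD lungs, was apart under BD, with a log2 fold change of -0.65 (adjusted p = 4.02e-05).

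Ranges of CPM did not overlap between strains for 31 of 39 members in clean air, 8 higher and 23 lower in CAST/EiJ, as for 31.9% of all tested genes (15.7% higher, 16.2% lower). Under BD this held for 29 of 39 members, 7 higher and 22 lower, against 29.3% of all genes (15.1% higher, 14.2% lower). Over all 12 CAST/EiJ and 11 C57BL/6J libraries it held for 28 of 39 members, 7 higher and 21 lower in CAST/EiJ, against 15.2% of all genes (8.3% higher, 6.89% lower). These 28 were picked without number 8 and include rows that are not separate measurements. The place of number 8 was not counted over all genes. Earlier results of these data had put number 8 with C57BL/6J, and it was left out of the tests for that reason. Its place among the members was therefore looked at with that result known. Library number 8, whose label is CAST/EiJ BD, lay inside the C57BL/6J range for 26 of these 28 members. Its Klrk1 level was 11.98 CPM, its Klra8 level 4.12 CPM, its Klrb1f level 2.03 CPM and its Clec2h level 0.0549 CPM. For the other 2 it lay in neither range, with Clec2g at 7.80 CPM between the highest C57BL/6J library (2.79 CPM) and the lowest CAST/EiJ library (10.6 CPM), and Klra12 at 2.42 CPM just under the lowest C57BL/6J library (2.52 CPM).

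The levels of some rows are not separate measurements. In CAST/EiJ, the adjoining genes Clec2f, Klrb1f, Clec2e and Klrb1-ps1 kept nearly fixed count ratios. Clec2e counts divided by Klrb1-ps1 counts lay between 1.00 and 1.02 in all 12 CAST/EiJ libraries, with an SD of the log2 ratio of 0.00742, where independent counts of this size would give 0.0987 from counting alone. The ratio of Clec2e to Klrb1f was 0.816–0.846 and that of Clec2f to Klrb1f 0.665–0.724, with SDs of 0.0161 and 0.0420 on the log2 scale. Clec2g, the next gene in the RefSeq order, did not follow them.

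**Figure D4:**
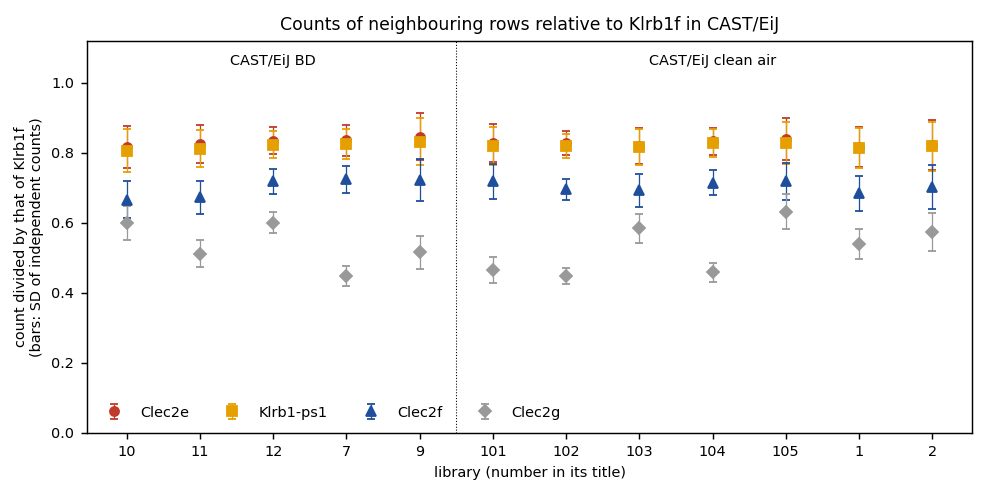
Counts of Clec2e, Klrb1-ps1, Clec2f and Clec2g divided by the count of Klrb1f in each CAST/EiJ library, with bars for the SD that independent counts would have. Clec2e, Klrb1-ps1 and Clec2f stay level across the 12 libraries, whereas Clec2g moves by more than its bars.

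Measured by the SD of the log2 ratio over the 12 CAST/EiJ libraries among 16032 genes, the 3 genes most like Clec2e were Klrb1-ps1, Klrb1f and Clec2f, and the fourth was Rpa3 at 0.157. The 4 rows therefore count as 1 measurement in CAST/EiJ at most, and how the counting assigned reads to them is not given in the sources used here. All 4 are among the rows called higher in CAST/EiJ, in clean air and under BD. In C57BL/6J the same 4 rows had 98 counts or fewer in all except Klrb1f with 431. Among Klra rows in C57BL/6J, Klra13-ps and Klra23 had an SD of the log2 ratio of 0.0494 (0.229 for independent counts), and Klra18 and Klra4 of 0.0600 (0.261). These pairs are uncertain as separate genes. So are Klra33 with Klra4 (0.0991 and 0.284), Klra21 with Klra8 (0.116 and 0.239) and Klra15 with Klra22 (0.167 and 0.451). Reads of near-identical Ly49 copies may be split between 2 such rows or counted for both. In C57BL/6J, other pairs also had an SD below that of independent counts. Among them were Klra8 with Klrk1 (0.1205 and 0.1823) and Klrc2 with Klrk1 (0.2238 and 0.2416). For pairs in C57BL/6J, shared reads and a shared pattern cannot be told apart by this measure alone.

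By the same measure, the genes whose pattern over the 12 CAST/EiJ libraries was most like that of Clec2h were H2-Ob (SD of the log2 ratio 0.145), Btla (0.172) and Fam65b (0.188), none of them a member, while the B cell marker Ms4a1 stood at rank 36 of 16032 and Ncr1 at rank 7153. Over the 11 C57BL/6J libraries, the genes most like Klrk1 were Klra8 (0.120) and Klra21 (0.172), with Il2rb at rank 9 and Ncr1 at rank 116. Klra8 and Klra21 are uncertain as separate genes. These are descriptions, and libraries of 2 exposures enter each.

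An alignment to the C57BL/6J genome can lower a CAST/EiJ level where its sequence differs and can place its reads on a paralog, and this was not tested. The strain differences of the members and such an effect cannot be told apart from the counts. NK cell markers outside the family are set beside the members, and their CAST/EiJ reads were aligned to the C57BL/6J genome too. Of the 19 tested, 18 lie on chromosomes other than 6 and 1 (Cd244) had no matched chromosome. An effect of alignment on the markers was not tested either. In clean air 17 of the 19 were lower in CAST/EiJ and none higher, where 31% of all tested genes were lower and 29.4% higher. The median log2 fold change of the 19 was -2.08. A marker, like a member, could pass the filter through the libraries of 1 strain alone. The counts of the marker lists may therefore be partly set by the filter.

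Ncr1, the NK cell receptor NKp46, averaged 1.44 ± 0.567 CPM (SD, n = 7) in clean-air CAST/EiJ lungs and 9.55 ± 1.67 CPM (SD, n = 5) in those of C57BL/6J, a log2 fold change of -2.75. The granule protease Gzma had -2.88, the transcription factor Eomes -2.45, perforin (Prf1) -1.35 and the chemokine Ccl5 -3.89. The summed level of all 20 markers was 142.4–185.7 CPM in clean-air CAST/EiJ lungs and 260.1–328.9 CPM in clean-air C57BL/6J lungs. Il18r1, a cytokine receptor gene, made up a large part of it, at 81.0–116.1 CPM and 103.7–144.8 CPM in these groups, and the other 19 summed to 54.3–86.8 CPM in clean-air CAST/EiJ lungs and 152.7–193.1 CPM in clean-air C57BL/6J lungs. In clean air 12 of 14 T cell markers were also lower in CAST/EiJ (Cd3e -3.29), and so were all 8 B cell markers. Under BD, 13 of 19 NK cell markers were lower in CAST/EiJ and 1 higher, where 22.3% of all tested genes were lower. Of the 14 T cell markers 10 were lower under BD, and none of the 8 B cell markers was called. No marker of any of these lists was at 0 in every library of a group. In whole lung, fewer cells of a type, less RNA per cell and an effect of alignment cannot be told apart. The part of any of them in the members' values was not tested.

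Of 15 tested receptor adaptors and signalling genes, 10 were lower and 1 higher in clean-air CAST/EiJ lungs. Hcst, the adaptor that pairs with NKG2D, had a log2 fold change of -0.75 (edgeR adjusted p = 0.00144), and Tyrobp, the adaptor of the activating Ly49 receptors, did not pass (0.25, adjusted p = 0.160). Of 14 tested ligands outside the family, 8 were lower and none higher. H2-K1 and H2-D1, the classical class I genes, had log2 fold changes of -0.56 and -0.50, H2-T23 had -0.41, and the NKG2D ligand genes H60b and H60c had -4.27 and -2.83. The NKG2D ligand genes Raet1a to Raet1e all overlapped between strains in clean air. Raet1c, for example, ranged over 1.06–2.05 CPM in clean-air CAST/EiJ lungs and 1.00–1.94 CPM in clean-air C57BL/6J lungs. Among the 9 other lectin genes tested, 7 were lower and 1 higher. Under BD, 3 adaptor and signalling genes, 7 ligands and 5 other lectin genes were lower in CAST/EiJ, with 1, 0 and 1 higher.

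The next question is what BD did within each strain, where the alignment is the same on both sides. In C57BL/6J, 4 of 39 members fell under BD and none rose (10.3% of the members), where 10.7% of all tested genes were called (4.2% higher, 6.49% lower), a share near the background. The median log2 fold change of the 39 was -0.589, against -0.00236 over all genes, and 35 of 39 were below 0. The share of all genes below 0 was not counted. Of the 39, 5 pass the filter only through the CAST/EiJ libraries, and some rows may not be separate measurements. The members that fell were the Klrb ligands Clec2i and Clec2g, the receptor Klrb1b and Klra3.

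Clec2i was measured at 2.25, 2.87 and 5.46 CPM (lowest, median, highest of 6) in C57BL/6J BD lungs, against 5.56, 7.97, 8.35, 8.96 and 9.10 CPM in clean-air C57BL/6J lungs. Every BD library was below every clean-air library, and Clec2i was 2.28-fold lower (log2 fold change -1.19 ± 0.22 (SE), edgeR quasi-likelihood, Benjamini-Hochberg adjusted p = 0.00177). Clec2g stood at 0.585, 0.784 and 1.85 CPM in C57BL/6J BD lungs, against 1.56, 1.93, 2.20, 2.21 and 2.79 CPM in clean-air C57BL/6J lungs. Its ranges overlapped through the 2 highest BD libraries, and the log2 fold change was -1.01 (adjusted p = 0.0125). Klra3 had 0.490, 0.827 and 1.1204 CPM in C57BL/6J BD lungs, against 1.15, 1.59, 1.71, 1.78 and 1.84 CPM in clean-air C57BL/6J lungs, without overlap (log2 fold change -1.04, adjusted p = 0.0182; 0.0509 without C57BL/6J BD replicate 4).

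Klrb1b was measured at 3.36, 3.79 and 7.11 CPM in C57BL/6J BD lungs, against 4.68, 7.28, 7.31, 7.86 and 10.8 CPM in clean-air C57BL/6J lungs, with overlap (log2 fold change -0.76, adjusted p = 0.0173). It did not pass without C57BL/6J clean air replicate 1 (adjusted p = 0.0532), the 1 C57BL/6J library with a number over 100, or without all clean-air libraries so numbered (0.0573). Of the 39, Clec2i and Klra3 had ranges that did not overlap, both lower, as for 7.74% of all tested genes (4.09% higher, 3.65% lower). Among members that did not pass, Klrk1 had a log2 fold change of -0.53 ± 0.22 (SE; adjusted p = 0.137), Klrd1 -0.72 (0.140), Klra8 -0.57 (0.178), Klrb1c -0.30 (0.379) and Klrc1 -0.22 (0.716). Clec2d had -0.03 ± 0.11 (0.928).

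The call count in C57BL/6J moved with the setting, to 14 members with only the C57BL/6J groups in the fit (14.6% of all genes called), to 9 with DESeq2 (13.4%) and to 7 without clean-air numbers over 100 (17%), all of them lower. Beside the members, 4 of 19 NK cell markers fell in C57BL/6J (Il18r1, Eomes, Cd244 and Txk), 8 of 14 T cell markers and 7 of 8 B cell markers. The summed NK list was 190.2–232.6 CPM in C57BL/6J BD lungs and 260.1–328.9 CPM in clean-air C57BL/6J lungs (without Il18r1, 116.6–155.7 CPM and 152.7–193.1 CPM), and the summed B cell list 59.5–155.2 CPM and 169.0–303.3 CPM in these groups. Their part in the fall of Clec2i, Clec2g, Klra3 and Klrb1b was not tested. Of the adaptors, 6 of 15 fell, among them Syk (-0.82) and Plcg2 (-0.87).

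In CAST/EiJ, 7 of 39 members fell under BD and none rose (17.9% of the members), where 7.22% of all tested genes were called (3.86% higher, 3.37% lower). The median log2 fold change was -0.573, against -0.0183 over all genes, and 37 of 39 were below 0. The share of all genes below 0 was not counted. Of the 39, 18 pass the filter only through the C57BL/6J libraries, and some rows are not separate measurements. The 7 were 5 Klra rows, Klrb1f and Clec2d, and no member had ranges that did not overlap in either direction (2.16% of all genes, 1.51% higher and 0.65% lower). These calls exclude number 8. The 5 Klra rows pass the filter on low counts only through the C57BL/6J libraries, where they are high. Of the 21 members that pass in CAST/EiJ libraries alone, a count chosen after seeing the data, 2 were called (Klrb1f and Clec2d), where 7.45% of all such genes were. The count of 7 depended on the setting. With number 8 kept under its label, or with only the CAST/EiJ groups in the fit, none of the members was called in edgeR, where 13.8% and 0.957% of all genes were. It was 3 without clean-air numbers over 100 (3.53% of all genes) and 1–10 with 1 library left out (354–3007 genes called).

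Klra7 was measured at 0.0695, 0.114, 0.146, 0.162 and 0.174 CPM in the 5 CAST/EiJ BD libraries, against 0.164, 0.453 and 1.17 CPM (lowest, median, highest of 7) in clean-air CAST/EiJ lungs. Only the lowest clean-air library lay within the BD range. Klra7 was 3.79-fold lower (log2 fold change -1.92 ± 0.36 (SE), edgeR adjusted p = 0.00543) on 19 and 70 counts in all. Klra7 held its call under 28 of the 29 alternatives that could test it. With only the CAST/EiJ groups in the fit it did not pass the filter and was not tested. With number 8 kept, at 4.67 CPM, the log2 fold change was 0.67 (edgeR adjusted p = 0.548). Klra23 had a log2 fold change of -1.22 (adjusted p = 0.0325), Klra13-ps -1.16 (0.0344), Klra14-ps -1.08 (0.0433) and Klra12 -1.02 (0.0379). These 4 rested on 23–42 counts in CAST/EiJ BD and 51–78 in clean-air CAST/EiJ libraries, and each lost its call when 1 of several libraries was left out, with adjusted p up to 0.0963.

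Klrb1f stood at 20.7, 21.2, 22.7, 23.5 and 28.4 CPM in CAST/EiJ BD lungs, against 21.4, 33.5 and 44.1 CPM in clean-air CAST/EiJ lungs, with overlap (log2 fold change -0.52, adjusted p = 0.0397). The rows that kept a nearly fixed count ratio to it had log2 fold changes of -0.52 (Clec2e), -0.53 (Clec2f) and -0.53 (Klrb1-ps1), with adjusted p of 0.0535, 0.176 and 0.107. Clec2d was measured at 135, 144, 164, 174 and 204 CPM in CAST/EiJ BD lungs, against 164, 226 and 236 CPM in clean-air CAST/EiJ lungs (log2 fold change -0.35, adjusted p = 0.0461). The Clec2d call was lost under 22 of 30 alternatives, 17 of them with 1 library left out, and the Klrb1f call under 12 of 30, 8 of them with 1 library left out. Both rows lay lower in the 2 clean-air libraries with low numbers, at 21.4 and 26.7 CPM for Klrb1f and 164 and 175 CPM for Clec2d. Against those 2 alone the log2 fold changes were -0.07 for Klrb1f (adjusted p = 0.923) and -0.06 for Clec2d (0.892), so neither was called against the low-numbered clean-air libraries.

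Klrk1 did not pass in CAST/EiJ (log2 fold change -0.47 ± 0.26 (SE), adjusted p = 0.244), nor did Klrd1 (-0.57, 0.289), Klra8 (-0.61, 0.167), Klrb1c (-0.61, 0.0614), Klra2 (-0.06, 0.837), Clec2h (-0.07, 0.920) or Clec2i (-0.27, 0.446). The NK cell markers held 1 that rose, Prf1 (log2 fold change 0.74, adjusted p = 0.0187), and 1 that fell, Gzma (-0.92, 0.0254), of 19, with a median of -0.0727. No T cell or B cell marker passed. The summed NK list was 144.9–188.8 CPM in CAST/EiJ BD lungs and 142.4–185.7 CPM in clean-air CAST/EiJ lungs, and without Il18r1 62.3–82.7 CPM and 54.3–86.8 CPM. H2-K1 fell, with a log2 fold change of -0.40 (adjusted p = 0.0369), whereas H2-D1 (-0.36, 0.0639) and H2-T23 (-0.42, 0.0622) did not pass.

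**Figure D5:**
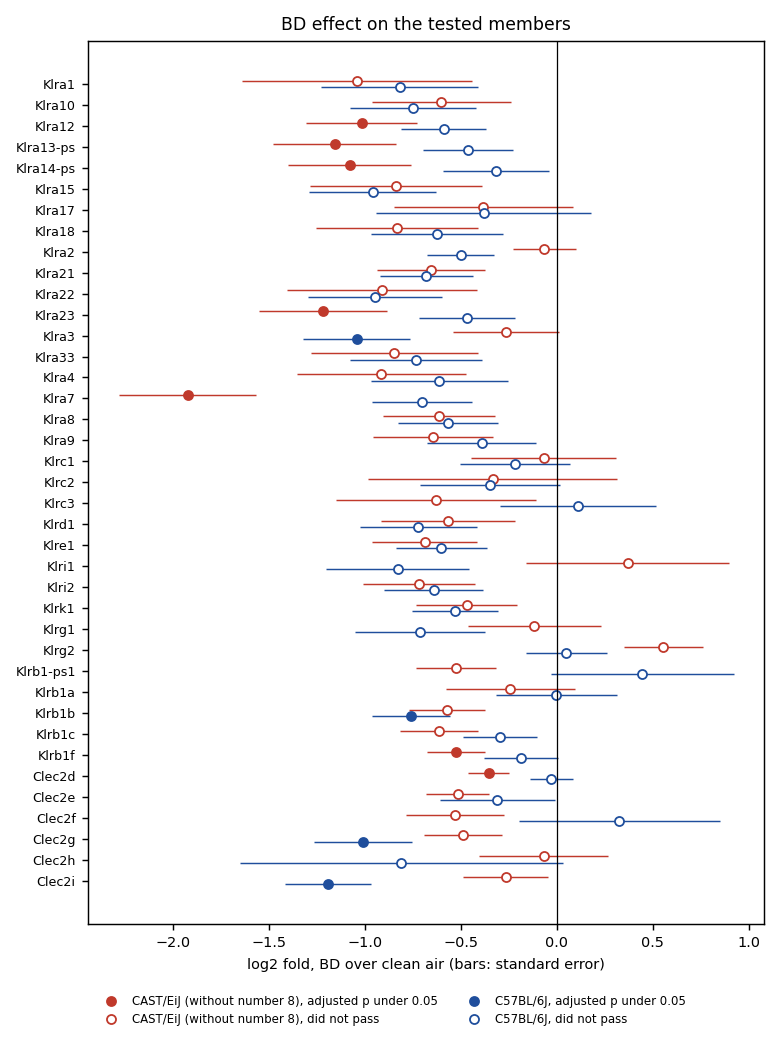
Log2 fold change of BD over clean air with its standard error for the 39 tested members in CAST/EiJ without number 8 (red) and in C57BL/6J (blue), filled where the adjusted p was under 0.05. Most points lie left of 0 in both strains, 4 are filled in C57BL/6J and 7 in CAST/EiJ, and no member is filled in both.

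The last question is whether BD acted differently in the strains. The interaction sets the fold change under BD of CAST/EiJ lungs over that of C57BL/6J lungs, and an alignment factor that is constant within a strain cancels in it. None of the 39 members was called in edgeR, where 9.44% of all tested genes were (5.62% higher, 3.82% lower), and 3 had an unadjusted p under 0.05. DESeq2 called 1. The lowest adjusted p was 0.0604, for Clec2i, with an interaction of 0.92 ± 0.31 (SE) on the log2 scale. Klra7 had -1.22 ± 0.44 (SE; adjusted p = 0.0742). So the rows called in 1 strain were not shown to respond differently in the other. Beside them, the interaction was called for 3 of 19 NK cell markers, Prf1 among them (1.00, adjusted p = 0.0198), and for 3 of 14 T cell markers, Cd3e among them (1.87, adjusted p = 0.0264).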

How the data were processed

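Polyadenylated RNA of mouse lungs was sequenced from TruSeq libraries, per the labels' protocols. The authors deposited raw counts per gene, and reads were aligned with GSNAP to mm9, per the submitters' processing notes. The counting tool, annotation and use of strand are not given in the sources used here, so reads of near-identical or antisense genes may be split, shared or lost. The members and companion lists were chosen with earlier results of these data known.

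Of 23893 entries, 21 without a value in the CAST/EiJ columns were left out. Counts of 23 libraries in 4 groups were filtered with filterByExpr (minimum count 10), scaled by TMM and tested in edgeR 4.0.16 (R 4.3.3) with 1 mean per group and a shared spread. Library number 8 was left out because earlier results of these data had put it with the strain other than that of its label. CPM values are counts per 1000000 counts of a library, with library sizes scaled by TMM factors taken over all 24 libraries. They have no length correction, so levels of different genes are not compared. Values are printed for every member called in any comparison and for a fixed list of main receptors and ligands. Other genes were named when called, up to 4 per direction by smallest p, or from a fixed list. The Raet1 genes were added after seeing the data. The genes most like Clec2e, Clec2h and Klrk1 are those with the smallest SD of the log2 ratio. Alternatives were DESeq2 1.42.0, median-of-ratios factors, no filter, only the groups compared, number 8 kept, title numbers over 100 left out or as a covariate, and each library left out in turn. The edgeR step was tested on simulated data. Promoters came from a RefSeq table and were aligned with Biopython 1.88 (Python 3.11.15). Figures were drawn with matplotlib 3.10.9. The miRNA and chromatin data were not used here.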

Additional observations from a re-analysis of the deposited data

Results flagged for a closer look

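Of 156 sets of member values (39 rows in 4 groups), 13 held a library far from the rest of its group by Dixon's criterion, which chance gives in about 1 of 20 sets. CAST/EiJ BD replicate 2 stood above the others of its group for Klra15 (0.324 CPM), Klra18 (0.851 CPM), Klra33 (0.608 CPM) and Klra4 (0.730 CPM). All of these rows are uncertain as separate genes. CAST/EiJ BD replicate 6 stood above for Klra17 (2.57 CPM). In clean-air CAST/EiJ lungs, replicate 1 stood above the rest for Clec2i (6.88 CPM, others 3.12–4.58 CPM) and Klri1 (0.246 CPM), replicate 4 for Klra22 (0.499 CPM) and replicate 6 for Klra9 (1.76 CPM). C57BL/6J BD replicate 6 stood above for Klra33 (3.12 CPM) and Klra4 (4.19 CPM). C57BL/6J clean air replicate 5 stood below for Klra18 (3.51 CPM) and Klra4 (2.96 CPM).

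The BD ratio differed between the strains for 19 of 99 tested genes of the companion lists (edgeR interaction, adjusted p 0.00896–0.0492). Of all tested genes, 9.44% were called (5.62% higher, 3.82% lower). That share was 0.483% with title numbers over 100 as a covariate and 1.8% without the clean-air libraries so numbered. The log2 BD ratio in CAST/EiJ was below that in C57BL/6J for the macrophage receptor gene Marco (difference -1.37) and above it for 18. Of lymphocyte genes, it was above by 1.00 for Prf1, 0.49 for Il18r1, 0.36 for Itga2, 1.87 for Cd3e, 1.28 for Cd8a, 1.13 for Tcf7 and 1.81 for Fcer2a, and by 0.95 for Gata3, 0.73 for Il1rl1 and 1.00 for Il7r. Of signalling genes, the difference was 0.67 for Cd247, 0.91 for Lcp2, 0.79 for Plcg2, 1.01 for Syk and 0.74 for Vav1. It was 1.37 for Ccr7, 0.53 for Clec9a and 3.39 for Clec12b. Clec12b was near 0 in CAST/EiJ, at 0–0.0594 CPM in clean-air lungs and 0.0572–0.417 CPM in BD lungs without number 8. It had 3.25–7.49 CPM in clean-air C57BL/6J lungs, so its value rests on few CAST/EiJ counts.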

How the results depend on the processing

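The number of members called between strains in clean air was 34–39 under the alternatives and 36–38 with 1 library left out. Of all tested genes, 43.8–60.7% were called under these alternatives, and 9701–10799 genes with 1 library left out. Under BD the number of members was 30–34 and 33–35, where 32.7–48.1% of all genes and 6808–7644 genes were called. Counting members that pass the filter in each strain alone, chosen after seeing the data, gave 15 and 12. Of all such genes, 60.6% and 42% were called. The number lower under BD in C57BL/6J (4 as reported) was 9 with DESeq2 (13.4% of all genes called) and 14 with only the groups compared (14.6%). It was 7 without clean-air title numbers over 100 (17%) and 9 with these as a covariate (19.4%). With 1 library left out it was 3–7, where 977–2309 genes were called (3 without C57BL/6J BD replicate 4 or clean air replicate 1, 7 without BD replicate 6). The number called under BD in CAST/EiJ (7 as reported) was 0 with number 8 kept (13.8% of all genes called) and 12 with DESeq2 (1 higher, 13.6%). It was 0 with only the groups compared (0.957%), where 21 members passed the filter. It was 3 without numbers over 100 (3.53%) and 3 with these as a covariate (1.58%). Counting members that pass the filter in CAST/EiJ alone, chosen after seeing the data, gave 2 (7.45% of such genes). With 1 library left out the number was 1–10, where 354–3007 genes were called. It was 1 without CAST/EiJ BD replicate 1 or 6 or clean air replicate 1 or 4, and 10 without clean air replicate 7. For the interaction (0 as reported) it was 1 with number 8 kept (11.7% of all genes called) and 1 with DESeq2 (16.9%). It was 0–2 with 1 library left out, where 372–3392 genes were called. With number 8 kept, the log2 fold changes under BD in CAST/EiJ turned to 0.67 for Klra7, 0.30 for Klra12, 0.75 for Klra13-ps and 0.63 for Klra23. The cause of these changes was not tested. No paired analysis was possible because no 2 RNA-seq groups share a title number. In CAST/EiJ, rows with few counts limit what can be seen.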
